A study of Mus musculus with 9 samples.

Results

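The miR-30 family was followed through 9 small RNA libraries of exosomes, small vesicles shed by cells into the culture medium. The members were the 7 mature miRNAs mmu-miR-30a-5p, mmu-miR-30a-3p, mmu-miR-30b-5p, mmu-miR-30c-5p, mmu-miR-30d-5p, mmu-miR-30e-5p and mmu-miR-30e-3p (the mouse prefix mmu is left out from here on), taken by name from the 1101 mature mouse miRNAs listed in at least 1 library. A miRNA that a library did not list was given a count of 0, and all 7 were listed in all 9 libraries. RAW264.7, a line of mouse macrophages grown with fetal bovine serum, shed the vesicles. It was either untreated or exposed to silica over 24 h or 48 h, and each of these 3 groups has 3 libraries. Silica is the mineral dust whose inhalation causes the lung disease silicosis. The silica dose and the culture time of the untreated cells are not stated in the sources used here. Libraries of a group are described as independent repetitions, with no word on separate cultures, so p-values measure the spread between these libraries, which may be technical.

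A miRNA gene is transcribed as a hairpin, and either arm of the hairpin, 5p or 3p, can be loaded into an Argonaute protein. The loaded strand pairs with messenger RNAs mainly through its seed, bases 2 to 8, and represses them. The miR-30 5p strands share a seed and are known for targets such as Snai1, a transcription factor of epithelial to mesenchymal transition, and the autophagy gene Beclin-1. The 3p strands of mir-30a and mir-30e share another seed and so address other transcripts.

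Mature sequences from RefSeq (GRCm38.p6) were found for 5 of the 7 members, and they are shown because they give the 2 seeds of the family and the bases by which near-identical members differ. They run 5′ to 3′ with the seed in capitals, the 5p strands first and the 3p strands after them.
miR-30a-5p: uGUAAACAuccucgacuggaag
miR-30e-5p: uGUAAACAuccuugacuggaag
miR-30c-5p: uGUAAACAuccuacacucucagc
miR-30a-3p: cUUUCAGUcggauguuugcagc
miR-30e-3p: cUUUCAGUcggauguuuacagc

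Of 1679 mature mouse miRNAs in the RefSeq table, which lacks miR-30b-5p and miR-30d-5p, 4 carry the seed GUAAACA, including the 3 5p strands shown. The fourth of them, miR-384-5p, was at 0 counts in all 9 libraries, which allows up to 0.360 to 1.39 CPM (counts scaled to 1000000 mature miRNA counts) in a library (3 counts, counting error only). Both 3p strands carry UUUCAGU, which 2 of the 1679 hold. Counted from 1 at the 5′ end, miR-30a-5p and miR-30e-5p differed by C13U alone, and miR-30a-3p and miR-30e-3p by G18A alone. miR-30c-5p differed from miR-30a-5p at 5 of the 22 positions they share. The sources used here do not say where a read that matches more than 1 miRNA was counted, so the split between the miR-30a and miR-30e strands is uncertain to that extent.

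The hairpins lie in 3 pairs on GRCm38 (GENCODE M21 annotation). Mir30a lies between genes at chr1:23272269-23272339 on the plus strand, and Mir30c-2, 19361 bases downstream at chr1:23291701-23291784, lies in an exon of the lincRNA Gm27028. Mir30c-1 at chr4:120769534-120769622 and Mir30e at chr4:120772606-120772697 lie in introns of Nfyc, which encodes a subunit of the CCAAT-binding factor NF-Y, on its strand and 2983 bases apart. Mir30b at chr15:68337415-68337510 and Mir30d at chr15:68341208-68341289, both on the minus strand and 3697 bases apart, lie in exons of noncoding transcripts, Gm26621 for Mir30b and Gm20732 and Gm37296 for Mir30d. miR-30c-5p is encoded by both Mir30c-1 and Mir30c-2, so its counts cannot be divided between the 2 loci.

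Mature miRNAs had 2158418 (24 h replicate 3) to 8331451 (48 h replicate 2) counts a library, or 28.01% to 44.7% of its reads. Replicate 2 of the untreated group and replicate 2 of the 48 h group stand apart from the other libraries, with 829 and 912 mature miRNAs listed against 486 to 713 in the other 7. Many of the fold changes and arm ratios that rest on them are also given without them. Of 8 macrophage and blood cell miRNAs, all were listed, with a summed level of 75738 to 105765 CPM in untreated, 71502 to 84177 CPM in 24 h and 86045 to 108549 CPM in 48 h libraries. miR-146a-5p, at 19539 to 71185 CPM, and miR-21a-5p, at 24383 to 67898 CPM, made up most of that sum. miR-223-3p, miR-142a-3p and miR-142a-5p reached at most 184, 241 and 226 CPM. Of the 8, miR-511-3p was at 0 in 5 of the 9 libraries and at most at 2.07 CPM. The groups did not overlap for 5 miRNAs abundant in serum, liver and red cells, all of them listed, which summed to 2135 to 5645 CPM in 24 h libraries and 407 to 1862 CPM in untreated ones. miR-122-5p and miR-451a made up nearly all of that sum, since miR-486a-5p, miR-486b-5p and miR-144-3p reached at most 10.1, 17.8 and 1.84 CPM. Of the 453 mature miRNAs tested below, 10.4% were also separate and higher at 24 h against untreated. The 5 miRNAs summed to 1198 to 1726 CPM in 48 h libraries, and their part in the differences given here was not tested.

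The 7 members together held 0.294% to 0.607% of a library's mature counts, and miR-30d-5p led the family in every library. In CPM, with TMM scaling between libraries, the order by the mean over 9 libraries was miR-30d-5p (2846), miR-30a-3p (1022), miR-30b-5p (311), miR-30a-5p (244), miR-30e-3p (219), miR-30c-5p (69.9) and miR-30e-5p (27.7). Among the 453 mature miRNAs that passed a filter on low counts and were tested, these means ranked from 42 for miR-30d-5p to 221 for miR-30e-5p. miR-30d-5p exceeded miR-30a-3p in 9 of 9 libraries, miR-30a-3p exceeded miR-30b-5p in 7, miR-30e-3p exceeded miR-30c-5p in 8 and miR-30c-5p exceeded miR-30e-5p in 9. The order in the middle was not stable, since miR-30b-5p exceeded miR-30a-5p in 4 of 9 libraries and miR-30a-5p exceeded miR-30e-3p in 3 of 9. The mature strands shown are 22 or 23 bases long, so these levels need no length correction, while any preference of library preparation for particular ends was not measured.

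**Figure D1:**
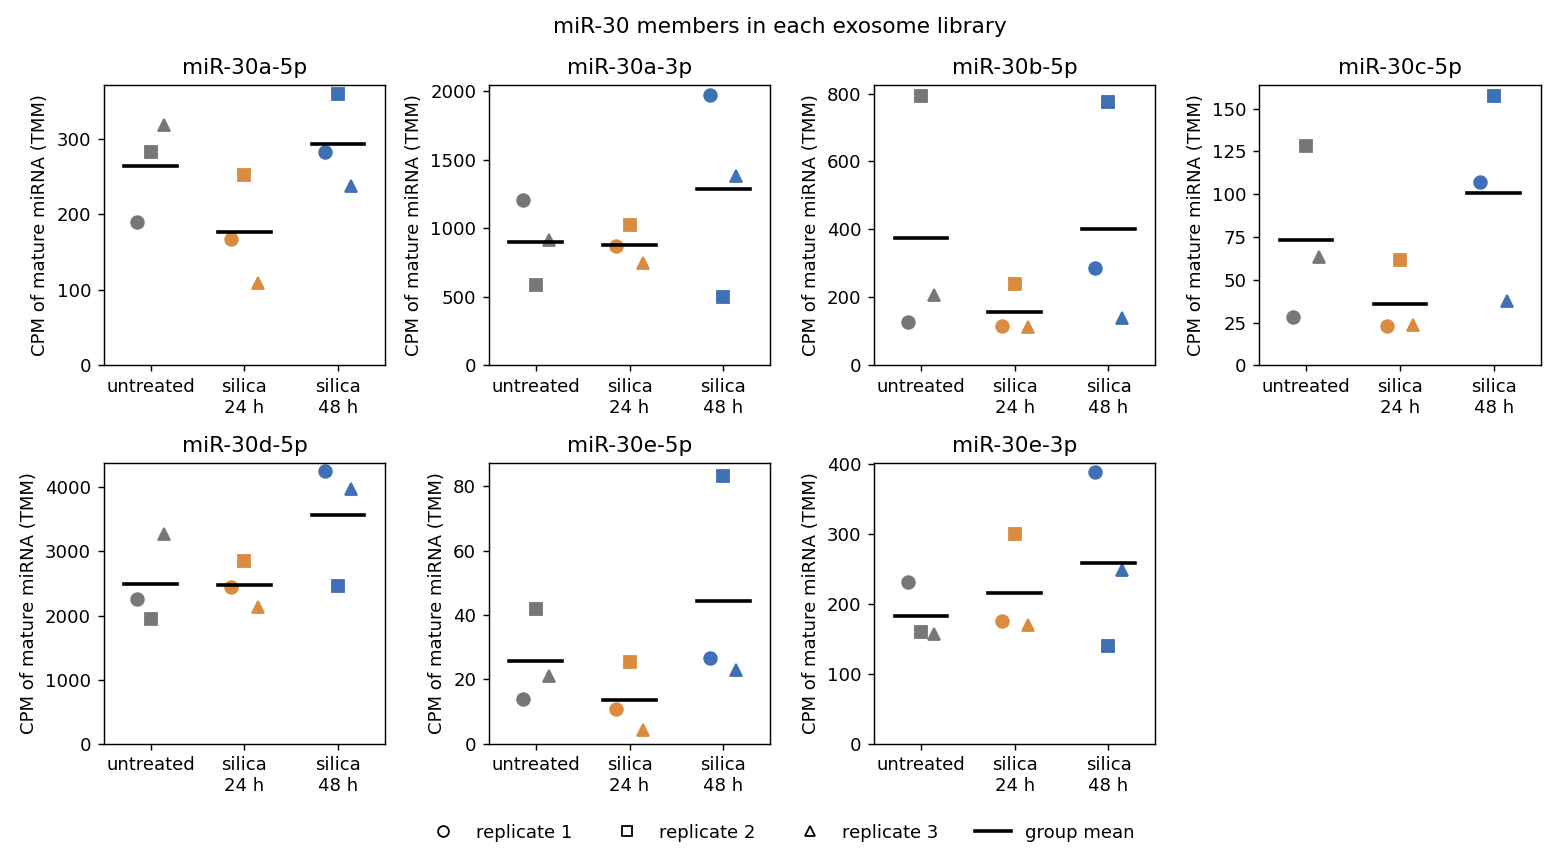
Level of each of the 7 members in each library, in CPM of mature miRNA with TMM scaling, for untreated, 24 h and 48 h libraries, with marker shape for the replicate number and a bar at the group mean (n = 3). No member has groups that do not overlap in any of the 3 comparisons, and replicate 2 is the highest library of its group for miR-30b-5p, miR-30c-5p and miR-30e-5p in all 3 groups.

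Members differed in how far libraries spread. miR-30d-5p, a 5p strand that is also found in the circulation, spread least, with 2254, 1948 and 3278 CPM in untreated, 2452, 2844 and 2130 CPM in 24 h and 4260, 2467 and 3980 CPM in 48 h replicates 1, 2 and 3. Its highest library was 2.19-fold its lowest, and 48 h replicates 1 and 3 were above all the others, while 48 h replicate 2 lay within the untreated range. miR-30a-3p, the 3p strand of mir-30a, had 1204, 585 and 912 CPM in untreated, 869, 1027 and 744 CPM in 24 h and 1972, 498 and 1384 CPM in 48 h replicates. Here 48 h replicates 1 and 3 were the highest of the 9 libraries and 48 h replicate 2 the lowest. miR-30e-3p, which shares its seed, had 232, 161 and 157 CPM in untreated, 176, 300.0 and 171 CPM in 24 h and 389, 140.1 and 248 CPM in 48 h replicates, again highest in 48 h replicate 1 and lowest in 48 h replicate 2.

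The 5p strands other than miR-30d-5p had another pattern, in which replicate 2 stood high. miR-30b-5p, encoded beside miR-30d-5p, had 127, 791 and 206 CPM in untreated, 117, 240.0 and 112 CPM in 24 h and 286, 774 and 141 CPM in 48 h replicates. Untreated replicate 2 and 48 h replicate 2 were the highest libraries, and the next, 48 h replicate 1, was at 286 CPM. miR-30c-5p had 28.1, 128 and 63.4 CPM in untreated, 23.0, 61.5 and 23.3 CPM in 24 h and 107, 157 and 37.6 CPM in 48 h replicates. miR-30e-5p, the least abundant member, had 13.8, 42.0 and 20.9 CPM in untreated, 10.9, 25.4 and 4.15 CPM in 24 h and 26.6, 83.2 and 22.8 CPM in 48 h replicates. Its 4.15 CPM rests on 8 reads, and its libraries spanned a 20.1-fold range, against 7.03-fold for miR-30b-5p and 6.83-fold for miR-30c-5p. miR-30a-5p lay between the patterns, with 189.8, 283 and 318 CPM in untreated, 168, 253 and 109 CPM in 24 h and 283, 359 and 237 CPM in 48 h replicates.

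On the log2 scale, replicate 2 exceeded the mean of replicates 1 and 3 of its group by 2.29 for miR-30b-5p, 1.59 for miR-30c-5p and 1.28 for miR-30e-5p in untreated libraries, where the median over the 453 miRNAs tested was 0.41. In 48 h libraries the same excess was 1.94, 1.30 and 1.74 for these 3 members, with a median of 0.24 over all tested. In the same 48 h libraries replicate 2 was below the other replicates by a log2 difference of -1.73 for miR-30a-3p, -1.15 for miR-30e-3p and -0.74 for miR-30d-5p. The members thus split within a single library: miR-30b-5p, miR-30c-5p and miR-30e-5p were high where miR-30a-3p, miR-30e-3p and miR-30d-5p were low. Among the 453, the high members stood at percentiles 84.8, 74.4 and 81.5 at 48 h and the low ones at 7.95, 16.8 and 25.2. In untreated libraries the high members stood at percentiles 86.5, 77.0 and 71.3. Replicate 2 thus deviated as far for many other miRNAs. In 24 h libraries all 7 members were higher in replicate 2, by 0.32 for miR-30d-5p to 1.83 for miR-30e-5p, against a median of 0.025 over all tested. These 2 members stood at percentiles 58.9 and 92.3.

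The split showed in the family's make-up. miR-30b-5p, miR-30c-5p and miR-30e-5p together held 24.4% of the 7 members' counts in untreated replicate 2 and 22.6% in 48 h replicate 2, and 3.32% to 6.88% in the other 7 libraries. miR-30d-5p held 49.5% to 66.1%. The ratio of miR-30d-5p to miR-30b-5p, whose hairpins are neighbours on chromosome 15, was 17.8, 2.46 and 15.9 in untreated, 21.0, 11.9 and 18.9 in 24 h and 14.9, 3.19 and 28.3 in 48 h replicates. That ratio was lowest in replicate 2 of every group and its groups overlapped in every comparison.

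**Figure D2:**
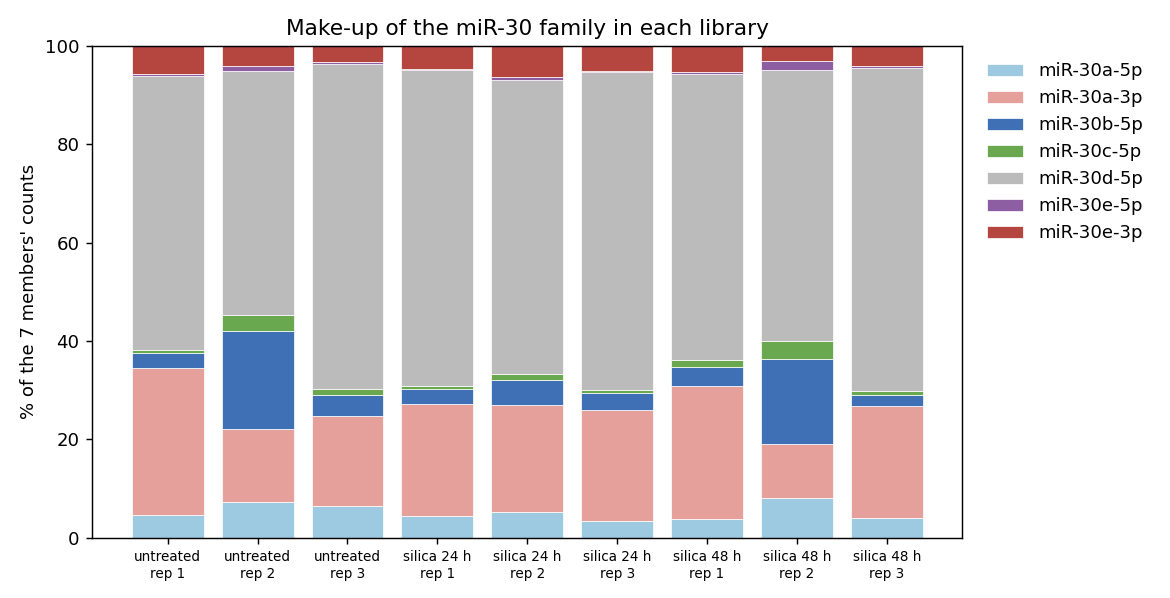
Share of each member in the summed counts of the 7 members, in percent, for each of the 9 libraries, with 1 stacked bar per library. Untreated replicate 2 and 48 h replicate 2 are the bars in which miR-30b-5p takes 20.1% and 17.3%, while miR-30d-5p takes 49.5% or more in all.

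After 24 h of silica no member passed the test against untreated libraries. miR-30b-5p averaged 156 ± 72.4 CPM in 24 h libraries and 375 ± 363 CPM in untreated ones (SD, n = 3 each), a log2 fold change of -1.26 ± 0.82 (SE) with an adjusted p of 0.614 (edgeR quasi-likelihood test, Benjamini-Hochberg over 453 miRNAs). miR-30c-5p averaged 35.9 ± 22.1 CPM in 24 h and 73.2 ± 50.8 CPM in untreated libraries (log2 fold change -1.02 ± 0.74, edgeR adjusted p 0.654). miR-30e-5p averaged 13.5 ± 10.8 CPM in 24 h and 25.6 ± 14.7 CPM in untreated libraries (-0.91 ± 0.78, edgeR adjusted p 0.704). All 3 sets of values overlapped, and the sizes depended on replicate 2. The log2 fold changes of miR-30b-5p, miR-30c-5p and miR-30e-5p were -0.055, -0.31 and -0.30 without untreated replicate 2, and -1.77, -1.71 and -1.78 without 24 h replicate 2. miR-30a-5p averaged 177 ± 72.0 CPM in 24 h and 264 ± 66.3 CPM in untreated libraries (-0.58 ± 0.53, edgeR adjusted p 0.716).

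Between libraries of the same number, these 4 members were lower at 24 h in 3 of 3 pairs, which 18.5% of the 453 miRNAs tested also were. None of the 7 was higher in all 3 pairs, against 24.3% of the 453. With the replicate number as a block, the edgeR adjusted p was 0.393 for miR-30b-5p, 0.343 for miR-30c-5p, 0.315 for miR-30e-5p and 0.505 for miR-30a-5p.

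The other 3 members were near 0 on the log2 scale at 24 h, with -0.010 ± 0.43 for miR-30d-5p, -0.033 ± 0.57 for miR-30a-3p and 0.23 ± 0.55 for miR-30e-3p. For miR-30d-5p the 95% interval of the difference ran from -0.96 to 0.94, so changes of that size in either direction could not be told from none at this spread. Of the 7 members 1 had a log2 fold change above 0 and their median was -0.58, while 46.6% of the 453 miRNAs tested were above 0 with a median of -0.074. Among all 453, edgeR called 0 at an adjusted p under 0.05 (0% of those tested), 46 had an unadjusted p under 0.05 (10.2%) and DESeq2 called 4 (0.883%). None of the 7 members was in any of these sets. With the replicate number as a block, edgeR called 3 of the 453 (0.662%) and no member. The 24 h groups were separate and higher than untreated for 10.4% of the miRNAs and separate and lower for 6.18%, against none of the 7 members in either direction.

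After 48 h of silica no member passed the test against untreated libraries either. miR-30d-5p averaged 3569 ± 965 CPM in 48 h and 2493 ± 697 CPM in untreated libraries (SD, n = 3 each), a log2 fold change of 0.52 ± 0.43. miR-30a-3p averaged 1285 ± 742 CPM in 48 h and 900.5 ± 310 CPM in untreated libraries (0.51 ± 0.57). miR-30e-5p, at 44.2 ± 33.8 CPM in 48 h and 25.6 ± 14.7 CPM in untreated libraries, had the highest log2 fold change of the 7, 0.79 ± 0.78, which was -0.096 without 48 h replicate 2. The edgeR adjusted p was 0.997 for each of the 7 members. The rest were 0.50 for miR-30e-3p, 0.46 for miR-30c-5p, 0.15 for miR-30a-5p and 0.096 for miR-30b-5p on the log2 scale.

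All 7 members were above 0 at 48 h, with a median of 0.50, beside 52.5% of all miRNAs tested and a median of 0.030. That uniform direction depended on single libraries. Without 48 h replicate 2, 3 of 7 were above 0 and the median was -0.044. Those 3 were farther above 0 than with it, miR-30a-3p at 0.89, miR-30e-3p at 0.79 and miR-30d-5p at 0.71. The rest fell below 0, from -0.044 for miR-30a-5p to -0.87 for miR-30b-5p. Without untreated replicate 1, 5 of 7 were above 0, with miR-30a-5p at -0.082 and miR-30b-5p at -0.37, and without untreated replicate 3, 6 of 7 were, with miR-30b-5p at -0.23. Without both 48 h replicate 2 and untreated replicate 2, all 7 were above 0 with a median of 0.57. edgeR called 0 of the 453 miRNAs at 48 h (0%), 4 had an unadjusted p under 0.05 (0.883%) and DESeq2 called 1 (0.221%), with no member in any set. Groups were separate and higher for 2.21% of the miRNAs and separate and lower for 1.55%, and for no member. Between libraries of the same number, miR-30d-5p and miR-30e-5p were higher at 48 h in 3 of 3 pairs, as were 14.8% of the 453, and no member was lower in all 3, against 11.5%.

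Set against the 24 h libraries, the 48 h libraries gave the largest fold changes of the family. These comparisons share libraries, so the low 24 h values of the 5p strands enter both this comparison and that with untreated cells. miR-30e-5p averaged 44.2 ± 33.8 CPM in 48 h and 13.5 ± 10.8 CPM in 24 h libraries (SD, n = 3 each), a log2 fold change of 1.70 ± 0.80 (95% interval -0.041 to 3.44) with an adjusted p of 0.458 (edgeR). miR-30c-5p averaged 101 ± 60.0 CPM in 48 h and 35.9 ± 22.1 CPM in 24 h libraries (1.48 ± 0.75, edgeR adjusted p 0.458). miR-30b-5p averaged 400.4 ± 332 CPM in 48 h and 156 ± 72.4 CPM in 24 h libraries (1.36 ± 0.82, edgeR adjusted p 0.521). For each of the 3, 48 h replicate 3 lay below 24 h replicate 2, so the groups overlapped. Without 48 h replicate 2 the log2 fold changes of miR-30e-5p, miR-30c-5p and miR-30b-5p were 0.83, 0.98 and 0.43, and without 24 h replicate 2 they were 2.53, 2.12 and 1.80.

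The other members had log2 fold changes of 0.73 for miR-30a-5p, 0.55 for miR-30a-3p, 0.53 for miR-30d-5p and 0.27 for miR-30e-3p between 48 h and 24 h. Without 48 h replicate 2 these were 0.54, 0.91, 0.72 and 0.55 in the same order. With all libraries kept, all 7 were above 0 with a median of 0.73, beside 54.1% of all miRNAs tested and a median of 0.14. edgeR called 0 of the 453 (0%), 44 had an unadjusted p under 0.05 (9.71%) and DESeq2 called 6 (1.32%), none of them a member. Groups were separate and higher at 48 h for 10.4% of the miRNAs and separate and lower for 10.4%, again for no member.

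**Figure D3:**
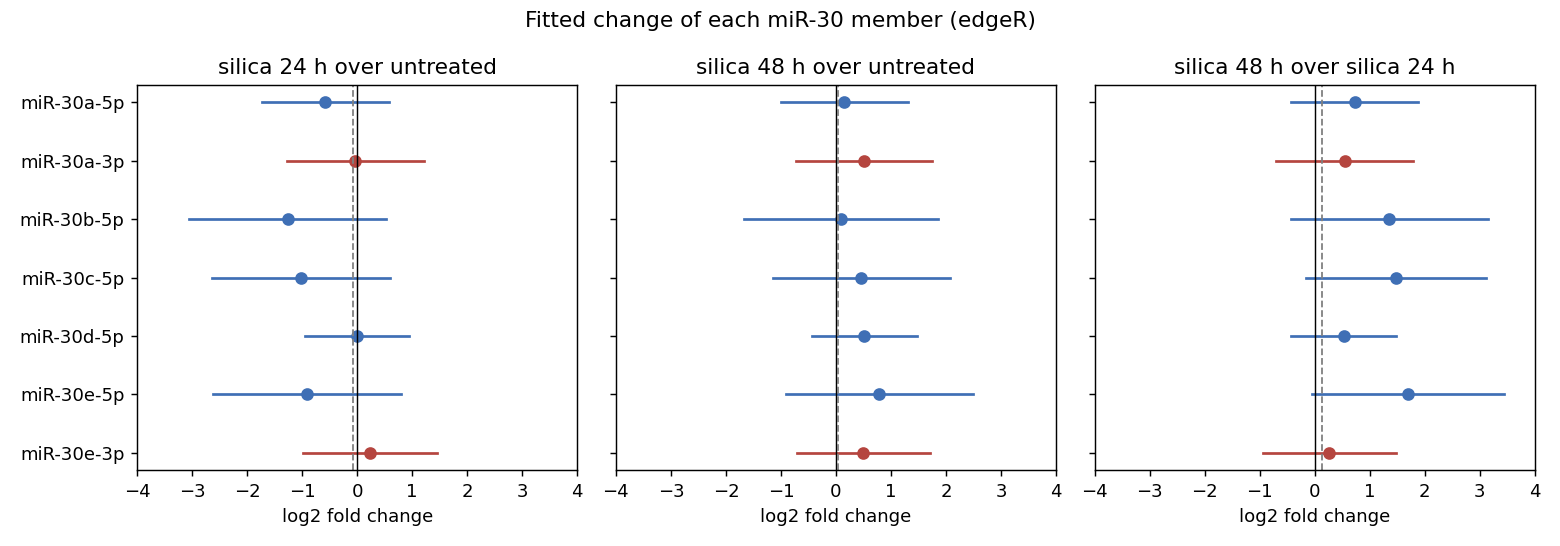
Log2 fold change of each member with its 95% interval in the 3 comparisons, from the edgeR fit over all 9 libraries, with 5p strands in blue, 3p strands in red and a dashed line at the median of all 453 miRNAs tested. Every interval includes 0, and the intervals of miR-30b-5p, miR-30c-5p and miR-30e-5p are the widest.

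Summed over the 5 miR-30 5p strands, known to share a seed, the level was 2613, 3192 and 3886 CPM in untreated, 2771, 3424 and 2379 CPM in 24 h and 4964, 3840 and 4418 CPM in 48 h replicates. All 48 h libraries were above all 24 h libraries, and 48 h replicate 2 was just below untreated replicate 3. Of the 453 miRNAs tested singly, 10.4% were separate and higher at 48 h against 24 h. Each 48 h library was above the untreated library of the same number, as was the case for 14.8% of the 453. Most of the sum was miR-30d-5p, whose own groups overlapped and averaged 2493, 2475 and 3569 CPM in untreated, 24 h and 48 h libraries. The sum averaged 3231 ± 637 CPM in untreated, 2858 ± 528 CPM in 24 h and 4407 ± 562 CPM in 48 h libraries (SD, n = 3 each). Without TMM scaling the 48 h libraries, at 4115 to 4398 CPM, were also all above the untreated ones, at 2456 to 3877 CPM. As a share of all mature counts the 7 members held 0.381%, 0.457% and 0.494% in untreated, 0.368%, 0.537% and 0.294% in 24 h and 0.607%, 0.513% and 0.599% in 48 h replicates. The 48 h shares were thus all above the untreated ones, while with TMM scaling the summed 7 members overlapped, at 4478 to 7326 CPM in 48 h and 3938 to 4956 CPM in untreated libraries. No test was made on these sums, and the share of all miRNAs with separate groups was not computed without TMM scaling. In such pooled vesicles, fewer vesicles or cells that hold a miRNA and fewer copies in each cannot be told apart.

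Beside the family, 2 other seed families can be set. The 10 let-7 guide strands, known for holding back growth genes, had 5 above 0 and a median log2 fold change of 0.054 at 24 h against untreated, 9 and 0.28 at 48 h against untreated, and 7 and 0.35 at 48 h against 24 h. The 6 members of the miR-15/16 family, known for repressing Bcl2 and cyclins, had 0 above 0 and a median of -1.32 at 24 h against untreated, 4 and 0.17 at 48 h against untreated, and 6 and 1.46 at 48 h against 24 h. The miR-30 5p strands alone had 0 of 5 above 0 and a median of -0.91 at 24 h, 5 and 0.46 at 48 h, both against untreated, and 5 and 1.36 at 48 h against 24 h. By these medians the miR-30 5p strands lay between let-7 and miR-15/16 at 24 h against untreated and at 48 h against 24 h, and the difference between families was not tested.

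In the mir-30a and mir-30e hairpins the 3p arm outnumbered the 5p arm in all 9 libraries. The 5p share of mir-30a, which is miR-30a-5p over both arms, was 13.6%, 32.6% and 25.9% in untreated, 16.2%, 19.7% and 12.8% in 24 h and 12.6%, 41.9% and 14.6% in 48 h replicates. For mir-30e it was 5.61%, 20.7% and 11.7% in untreated, 5.82%, 7.79% and 2.37% in 24 h and 6.39%, 37.3% and 8.41% in 48 h replicates. The lowest of these, 2.37% in 24 h replicate 3, had a Wilson 95% interval of 1.21% to 4.61%, which like the other intervals covers counting error only. Replicate 2 had the highest 5p share of its group in both hairpins and all 3 groups. In mir-30b and mir-30d the 5p arm led in all 9 libraries. Among the 104 hairpins with both arms tested, 28 (26.9%) had the 3p arm ahead in all 9 libraries and 46 (44.2%) had the 5p arm ahead, so a 3p lead of this kind was not peculiar to mir-30a and mir-30e. Replicate 2 had the highest 5p share in all 3 groups for 17 of the 104 (16.3%).

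No difference in the balance of arms between groups passed the test. The log2 ratio of 5p to 3p for mir-30e was lower by a mean difference of -1.31 in 24 h than in untreated libraries (exact permutation test, two-sided, p = 0.3, adjusted over 6 tests 0.6) and higher by 1.59 in 48 h than in 24 h libraries (exact p = 0.2, adjusted 0.6). For mir-30a the differences were -0.64 (exact p = 0.3, adjusted 0.6) and 0.45 (exact p = 0.9, adjusted 0.9). At 48 h against untreated they were 0.28 for mir-30e (exact p = 0.8) and -0.19 for mir-30a (exact p = 0.9). These differences also depended on replicate 2. For mir-30e the difference was -0.80 at 24 h against untreated without untreated replicate 2, and 0.63 at 48 h against 24 h and -0.69 at 48 h against untreated without 48 h replicate 2. For mir-30a the same 3 values were -0.29, -0.29 and -0.93, and at 48 h against untreated mir-30a was at 0.15 without untreated replicate 2. With 3 libraries against 3 the smallest p that this test can give is 0.1, so it could not pass 0.05.

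**Figure D4:**
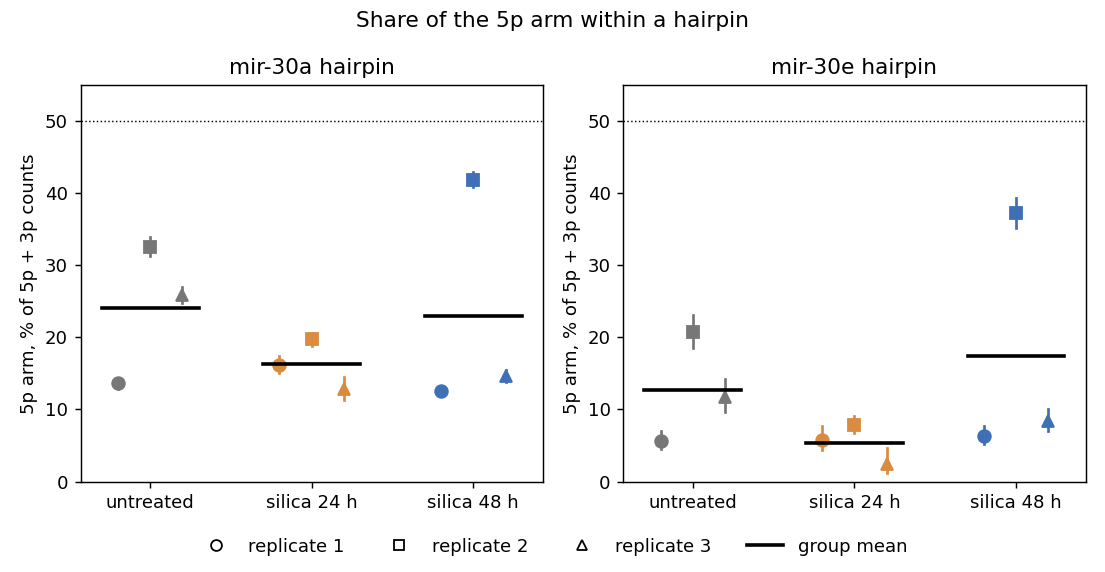
Share of the 5p arm in the counts of both arms of mir-30a and mir-30e in each library, in percent, with Wilson 95% intervals and a bar at the group mean (n = 3). All points lie below the dotted line at 50%, and 48 h replicate 2, at 41.9% and 37.3%, is the highest in both panels.

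The other arms of the family were not among the 7 members. By the mean over 9 libraries, miR-30c-2-3p (44.2 CPM), miR-30d-3p (33.5) and miR-30b-3p (31.5) were above the least abundant member, miR-30e-5p (27.7). The mean of miR-30c-1-3p (15.4 CPM) was below it. miR-30b-3p, miR-30c-1-3p, miR-30c-2-3p and miR-30d-3p lay between 1.73 and 87.7 CPM, and edgeR called none of them. miR-30c-2-3p had 45.1, 33.6 and 21.3 CPM in untreated, 53.5, 87.7 and 64.3 CPM in 24 h and 1.73, 42.8 and 48.2 CPM in 48 h replicates. Its 1.73 CPM in 48 h replicate 1 rests on 6 reads. miR-30c-2-3p was the only miR-30 strand tested whose groups did not overlap in a comparison. All its 24 h libraries were above all untreated and all 48 h libraries. Of the 453 miRNAs, 10.4% were separate and higher at 24 h against untreated and 10.4% separate and lower at 48 h against 24 h, a share near that of the miR-30 strands, 1 of 11 tested. Its log2 fold change was 1.04 ± 0.87 for 24 h against untreated (edgeR adjusted p 0.696). miR-30f, which lies antisense to Mir30e, had 8 reads in untreated replicate 1, 1 read in 48 h replicate 2 and 0 elsewhere.

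Members that share a seed or hairpin did not always move together over the 9 libraries, which also share scaling and groups. As a description, Pearson's r of log2 CPM was 0.94 for miR-30b-5p with miR-30c-5p, 0.93 for miR-30a-5p with miR-30e-5p and 0.88 for miR-30a-3p with miR-30e-3p. The strands of the last 2 pairs differ by 1 base each, and where reads matching both were counted is not stated. Such reads could enter the r of these 2 pairs, which was not tested. miR-30d-5p had r of -0.17 with miR-30b-5p, 0.14 with miR-30c-5p, 0.17 with miR-30e-5p and 0.38 with miR-30a-5p, and of 0.76 with miR-30a-3p and 0.64 with miR-30e-3p. For the strands of a single hairpin r was -0.052 for miR-30a-5p with miR-30a-3p and -0.052 for miR-30e-5p with miR-30e-3p. No r was computed without untreated replicate 2 and 48 h replicate 2, where miR-30b-5p was highest, at 791 and 774 CPM. The miRNAs outside the family nearest to the summed 5p level, of 442 compared, were miR-6967-3p (r 0.92), miR-365-3p (0.90), let-7j (0.82), miR-200c-3p (0.80) and miR-7117-3p (0.76). The first and the last of these averaged 2.15 and 1.77 CPM. The farthest were miR-7050-5p and miR-5119, both at -0.85.

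The tables hold a further miR-30 readout, a row for the mir-30 precursor family of Rfam, a database of RNA families, whose difference was chosen for a closer look after its values were seen. It held 12570 to 44821 reads a library, and whether a read there can also stand in a mature row is not stated in the sources used here. In RPM (reads scaled to 1000000 counted reads) it had 1280, 1055 and 1569 in untreated, 2821, 2886 and 1631 in 24 h and 1386, 2403 and 1798 in 48 h replicates. The 24 h libraries were all above the untreated ones, with 24 h replicate 3 close to untreated replicate 3. The means were 2446 ± 707 RPM in 24 h and 1301 ± 258 RPM in untreated libraries (SD, n = 3 each), a mean log2 difference of 0.88 (exact permutation test, two-sided, p = 0.1, the smallest it can give, adjusted over 6 tests 0.2). Of 68 Rfam precursor families listed in all 9 libraries, 5 (7.35%) were separate and higher at 24 h in RPM. At 48 h the mean was 1862 ± 511 RPM, with a log2 difference of 0.50 against untreated (exact p = 0.2) and -0.38 against 24 h (exact p = 0.3), and the groups overlapped in both.

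Per read of the 7 mature members the same row had 0.890, 0.658 and 0.807 reads in untreated, 2.08, 1.45 and 1.98 in 24 h and 0.626, 1.05 and 0.785 in 48 h replicates. All 24 h libraries were above all others on this scale, on which the share of separate families among the 68 was not computed. As a share of the Rfam precursor class it took 13.1%, 16.7% and 9.49% in 24 h replicates, against 5.23%, 5.24% and 3.47% in untreated ones. On that scale 14 of the 68 families (20.6%) were separate and higher at 24 h.

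**Figure D5:**
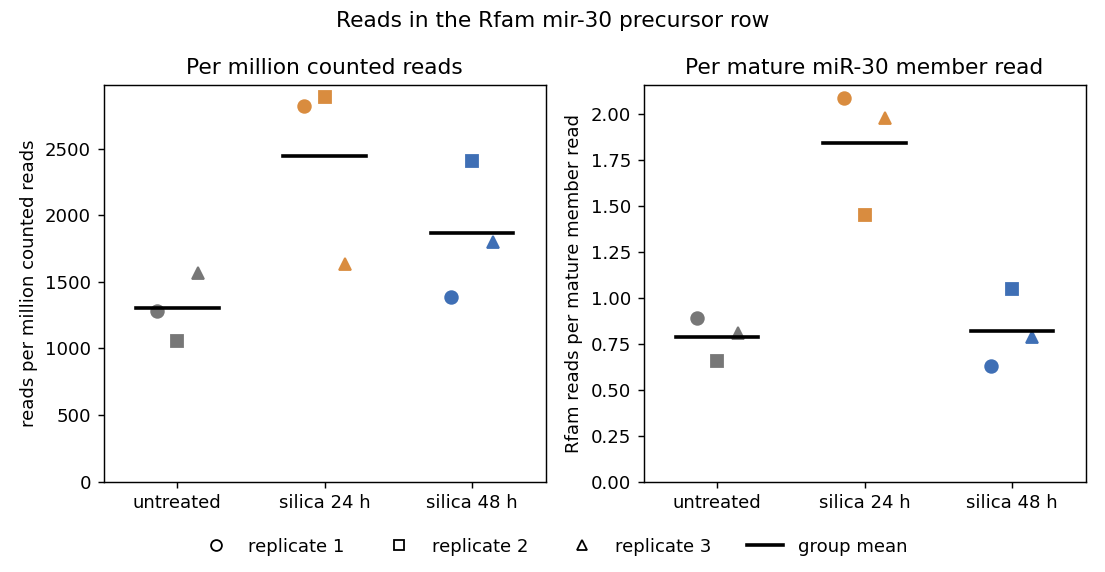
Reads in the Rfam mir-30 precursor row in RPM (left) and per read of the 7 mature members (right) in each library, with marker shape for the replicate number and a bar at the group mean (n = 3). The 24 h libraries lie at 1631 to 2886 RPM against 1055 to 1569 RPM in untreated ones, and at 1.45 to 2.08 per member read against 0.658 to 0.890.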

How the data were processed

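Small RNA of exosomes from RAW264.7 cells was measured in 9 libraries, 3 a group, and groups were taken from the labels. Per the labels' protocols, exosomes were collected by ultracentrifugation, RNA was taken with Trizol and libraries were made for the BGISEQ-500. Trim Galore, Bowtie and HTSeq and the build mm10 are named in the submitters' processing notes, without versions. Each deposited table gives, per the file headers, a read count per small RNA, and these counts add up to the header's total. The deposited column of scaled values was not used.

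Counts of mature miRNAs were filtered with filterByExpr (minimum count 10, 453 of 1101 kept, all 7 members among them), scaled by TMM (factors 0.829 to 1.16) and tested in 1 fit of all 9 libraries with edgeR 4.0.16 (quasi-likelihood, 6 residual degrees of freedom, Benjamini-Hochberg over 453, threshold 0.05). The common dispersion had a square root of 0.756. The fit was tested on simulated data. DESeq2 1.42.0, other scalings, no filter, only the 2 groups compared, a block and leaving out libraries were alternatives. Arm ratios added 0.5 counts to each arm and were compared by exact permutation tests. The named miRNAs outside the family are the 5 nearest and 2 farthest in Pearson's r with the summed 5p level. The members, lists and tests were chosen with earlier results of these data known, and the Rfam readout, miR-30f and the directions within same-numbered pairs after their values were seen. Lists of miRNAs from other cells or tissues were written from general knowledge, and besides those in the results they summed to 187 to 333 CPM (epithelial, 8 miRNAs), 408 to 2240 CPM (mesenchymal and endothelial, 6) and 70.4 to 234 CPM (neuron and muscle, 5) over the 9 libraries.

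No libraries of a group were duplicates, since chi-square divided by its degrees of freedom was 284 to 3744 over mature miRNAs. Deviations from the group means of libraries with the same number correlated, in the order of numbers 1, 2 and 3, at r of 0.136, 0.439 and 0.149 between 24 h and untreated groups. Between 48 h and untreated groups r was 0.152, 0.636 and 0.315, and between 48 h and 24 h groups it was -0.068, 0.289 and 0.253. In each comparison the highest r was that of replicate 2 with replicate 2. Most values between libraries of unlike number were negative, down to -0.532 for untreated replicate 2 with 48 h replicate 3. Some were positive, and untreated replicate 1 had r of 0.160 with 24 h replicate 3 and 0.360 with 48 h replicate 3. These values therefore do not settle whether the numbers pair the libraries, and the labels state no pairing. The replicate block and the same-numbered pairs are given as alternatives only. Intervals and floors cover counting error only.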

Additional observations from a re-analysis of the deposited data

Results flagged for a closer look

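The Rfam mir-30 precursor row lies outside the mature counts that the comparisons use, and it was above the untreated level in all 3 of the 24 h libraries. The mean log2 difference of 24 h over untreated was 0.88 in RPM and 1.22 per read of the 7 mature members. Of 68 Rfam precursor families, 7.35% were separate and higher at 24 h in RPM, and no such share was computed per member read. With 1 library left out in turn the difference in RPM ranged from 0.74 to 1.15, and it was 1.48 as a share of the Rfam precursor class. The summed level of the 5 serum, liver and red cell miRNAs was also higher in all 24 h than in all untreated libraries. So were 10.4% of the 453 miRNAs tested. The part of that summed level in the difference was not tested.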

How the results depend on the processing

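No member passed an adjusted p of 0.05 in any of the 16 alternatives of each comparison, or 0 of 336 values (lowest adjusted p 0.0983, edgeR with the replicate block, miR-30e-5p at 48 h against 24 h). The number of miRNAs called among all those tested moved more. At 24 h against untreated it was 7 without a filter, 4 in DESeq2, 3 with the replicate block, 1 with only the 2 groups and 0 to 1 with a library left out. At 48 h against untreated it was 1 without a filter, 1 in DESeq2 and 0 with any library left out, and 0 with the block. At 48 h against 24 h it was 16 without a filter, 6 in DESeq2, 3 with the block, which pairs libraries by number only, and 0 to 1 with a library left out. The block turned 2 directions at 24 h against untreated, miR-30a-3p (0.099) and miR-30d-5p (0.034), and otherwise changed no direction or call of a member.

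Leaving out a library, or untreated replicate 2 with 48 h replicate 2, turned some directions, and their log2 ranges were as follows. At 24 h against untreated they were -0.25 to 0.18 for miR-30a-3p, -0.15 to 0.16 for miR-30d-5p and -0.095 to 0.38 for miR-30e-3p. At 48 h against untreated they were -0.082 to 0.25 for miR-30a-5p, -0.87 to 1.28 for miR-30b-5p, -0.067 to 1.15 for miR-30c-5p, -0.096 to 1.37 for miR-30e-5p and -0.044 to 0.57 for the median of the 7. At 48 h against 24 h the range was -0.076 to 0.59 for miR-30e-3p. The arm ratio ranged from -0.93 to 0.24 for mir-30a and -0.69 to 0.87 for mir-30e at 48 h against untreated, and from -0.29 to 0.88 for mir-30a at 48 h against 24 h. Among the values tabulated, no other direction turned. In RPM of all counted reads the summed 5p level was 1251 in untreated, 1004 in 24 h and 1713 in 48 h libraries. With 3 libraries a group and a median standard error of 0.83 on the log2 scale over the miRNAs tested at 24 h against untreated, differences of that size could not be told from none, and miR-30e-5p, at 8 reads in 24 h replicate 3, is also limited by depth.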
